A study of Caenorhabditis elegans with 2 samples.

Results

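Nuclear pore and nuclear transport genes were examined for sites of CEH-90, a C. elegans homeobox protein, in a chromatin immunoprecipitation and sequencing (ChIP-seq) experiment on first-stage (L1) larvae. They were taken by symbol, as the protein-coding genes named npp-, imb-, ima-, xpo- or ran- with a number in the Ensembl WBcel235 annotation. This gave 40 genes of 19973 on the nuclear chromosomes, 26 npp genes and 14 transport genes. The experiment held 1 group of 2 biological replicates, hermaphrodites of strain OP210 (unc-119(ed3) III; wgIs210), collected 6 hours after they were synchronized by starvation following bleaching. In both, an integrated transgene supplied CEH-90 with GFP and FLAG on its C-terminal end, and chromatin was pulled down through the GFP. The tagged protein was thus measured rather than the endogenous one, in whole worms, so the cells in which a site was occupied were not measured. There was no second condition to compare with, and no test was made of the difference between these genes and others.

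The nuclear pore complex is the channel in the nuclear envelope through which proteins and RNA pass. Its scaffold is built of a Y-shaped complex and an inner ring, anchored by membrane proteins, and it carries a central channel of phenylalanine-glycine repeat proteins, a nuclear basket and filaments on the cytoplasmic side. Importins and exportins carry cargo through it, and the GTPase Ran, loaded with GTP in the nucleus, sets the direction of transport. Most of these genes are used in nearly all cells. In C. elegans many of them are needed in the embryo, where nuclear envelopes break down and reform at each division.

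Sequence around the summits of 4 members is shown because these sites span the range from a strong reproducible peak to one below the cutoff of the list. Each is the 101 bases centred on the summit (build WBcel235, equal to ce11), from 5′ to 3′ on the strand of the gene. Capitals mark the 6-mers GGCCAC and GGCCTA, as well as CGGCCA and CTAGGC, and lastly ACGCGC, on either strand, which an earlier analysis of these peaks found more often at summits than beside them. Their presence here is therefore a description.
npp-8, chrIV:1595945-1596045, minus strand: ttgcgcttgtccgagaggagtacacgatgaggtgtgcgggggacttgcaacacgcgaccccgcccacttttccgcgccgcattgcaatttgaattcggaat
npp-20, chrIV:1496078-1496178, minus strand: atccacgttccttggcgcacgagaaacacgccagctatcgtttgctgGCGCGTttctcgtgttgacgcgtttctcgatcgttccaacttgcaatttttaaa
ran-5, chrII:6047821-6047921, plus strand: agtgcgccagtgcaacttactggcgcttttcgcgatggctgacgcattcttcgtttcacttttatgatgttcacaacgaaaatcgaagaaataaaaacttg
npp-3, chrII:11874823-11874923, minus strand: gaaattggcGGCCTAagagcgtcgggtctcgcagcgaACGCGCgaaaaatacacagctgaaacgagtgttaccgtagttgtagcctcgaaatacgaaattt
The npp-20 site holds 1 copy of ACGCGC, read on the other strand as GCGCGT. The npp-3 site, the weakest of the 4, holds GGCCTA and ACGCGC, and the npp-8 and ran-5 sites hold none of the 5. The npp-18 site, also below the cutoff at rank 894 and not shown, holds none of the 5 either.

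Of the 40 genes, 7 had a summit of the authors' IDR list at a start. The irreproducible discovery rate (IDR) measures how alike replicates rank their peaks, and the list held 765 peaks. These were the 765 strongest peaks of the list made from both replicates pooled. An IDR site here thus equals a pooled rank of 765 or less, and does not show that each replicate ranked the site high. A summit counted for a gene when it lay at most 1000 bp before or 200 bp after one of its annotated starts. The 7 genes were npp-13, npp-8, npp-6, imb-3, npp-20, ran-5 and npp-12, a share of 17.5% (exact binomial 95% interval 7.34 to 32.8%, covering counting error only). Among all protein-coding genes 4.46% had such a summit, and 4.98% among those on the autosomes, where all 40 members lie. The 7 genes were reached from 7 different peaks. No peak served 2 members. The fusion and a general pull-down of gene starts cannot be told apart here, because a ChIP without the fusion was not analysed.

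Of the 7 sites, 2 were at the 8 genes of the Y complex and 3 at the 7 genes of the inner ring and membrane. The strongest was at npp-13, which encodes the worm Nup93, a core protein of the inner ring. Its peak covered 2096985 to 2097208 on chromosome I and had a signal of 407, rank 120 of the pooled list. The signal is the authors' value per peak, of unstated scaling, and only orders peaks within a list. The same site had a signal of 216 in replicate 1, rank 110, and of 193 in replicate 2, rank 118, with summits 11 and 1 bp from the pooled one. It lay 244 bp upstream of the npp-13 start, and no other protein-coding start had it in its window. Its 101 bases held GGCCAC and GGCCTA, as well as CTAGGC, which can overlap GGCCTA read on the other strand.

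The gene npp-8 encodes the Nup155 protein of the inner ring and came next, with a signal of 193 at rank 203 (signal 102 and rank 182 in replicate 1, 86.2 and 240 in replicate 2). Its peak, at 1595780 to 1596209 on chromosome IV, lay 171 bp upstream of npp-8 and 1323 bp from ced-2, the divergent neighbour. At npp-12, which encodes the membrane glycoprotein gp210 of the pore, the peak was near the end of the IDR list. It ranked 712 with a signal of 73.5, at 6446506 to 6446935 on chromosome I. In replicate 1 the site had a signal of 27.3 at rank 1115 and a q of 0.0668, and in replicate 2 a signal of 45.3 at rank 627 and a q of 0.0168. The summit was 583 bp upstream of npp-12 but 256 bp upstream of the divergent gene T23H2.3, so it was nearer to T23H2.3. The first 2 sites were high in both replicates, and that of npp-12 was among the strongest 765 of replicate 2 alone.

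Among genes of the Y complex, npp-6 and npp-20 had a site. The gene npp-6 encodes the Nup160 protein of the complex and had a peak of signal 170, rank 230, at 5176209 to 5176638 on chromosome I. Its signal was 83.2 in replicate 1, rank 216, and 81.8 in replicate 2, rank 255, and both summits were within 1 bp of the pooled summit. This summit lay 405 bp upstream of npp-6 and inside an annotated intron of the divergent gene spd-5, 230 bp from its 5′ end. A second, shorter spd-5 transcript starts 716 bp further on, so the peak counted for both genes. The spd-5 gene encodes a scaffold protein of the centrosome. The gene npp-20 encodes Sec13, shared between the pore and the coat of secretory vesicles, and had its summit 106 bp upstream of the start. That peak covered 1495913 to 1496342 on chromosome IV, with a signal of 96.5 and rank 443. Its signal was 32.6 at rank 712 in replicate 1 and 50.5 at rank 506 in replicate 2. It was not in the window of any other protein-coding gene.

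Transport genes held the other 2 sites. At imb-3, encoding an importin of the beta family related to human importin 5, the peak had a signal of 110 and rank 369, with a signal of 56.9 at rank 303 in replicate 1 and of 64.5 at rank 338 in replicate 2. It covered 315032 to 315461 on chromosome I, 258 bp upstream of imb-3, in the 3559 bp between imb-3 and the exportin gene xpo-2, which runs the same way. The xpo-2 start itself, at the far end of that gene, had no IDR summit. At ran-5, which encodes a Ran-binding protein, the peak had a signal of 77.5 and rank 641. It covered 6047656 to 6048085 on chromosome II and lay 238 bp upstream of ran-5, but 4 bp from the start of R12C12.6, transcribed the other way. The replicates differed most here: the matched summit had a signal of 50.5 at rank 505 in replicate 2 and of 19.9 at rank 3186 in replicate 1, where the authors' q was 0.409.

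**Figure D1:**
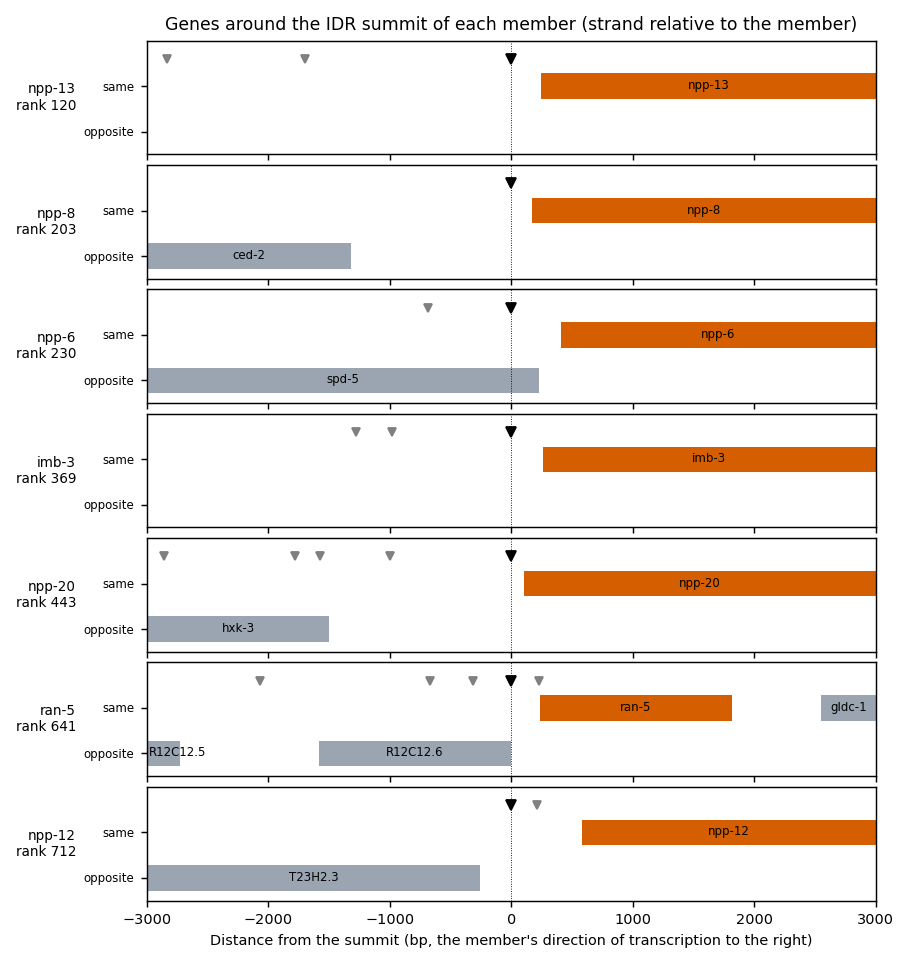
Protein-coding genes within 3000 bp of the IDR summit of the 7 members, drawn to scale with distance from the summit in bp on the x axis and the member's own strand above the opposite strand. Black triangles are the IDR summits and grey triangles other pooled-list summits. The summit lies upstream of the member in all 7, between 106 and 583 bp away, and inside spd-5 at npp-6.

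The remaining 33 members had no IDR summit in the window, and 28 of them had one in the pooled list, which the deposited descriptions say holds background besides peaks. In all, 35 of the 40 members (87.5%, exact interval 73.2 to 95.8%) had a pooled-list summit, and 41.4% of all protein-coding genes did. Within those with one, 7 of 35 members (20%) and 10.8% of all genes were in the IDR list. The best rank of the 35 members had a median of 1921 (quartiles 1087.5 and 7153), and that of the 8278 genes with a pooled-list summit a median of 9250.5 (2764.5 and 18391). These medians leave out the genes without a summit. The pooled list and that of replicate 2 each held 30000 entries, and that of replicate 1 held 23796. Ranks in lists of unlike length are not on 1 scale. In the pooled list 830 entries had a q of 0.05 or less. Without replicate 2, that is in the list of replicate 1, the medians were 4375 for members and 7459 for all genes, and in that of replicate 2 they were 2430.5 and 9811. None of the 28 had a q of 0.05 or less.

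The members just below the IDR list, whose lowest signal was 71.4, were npp-18, ima-2, npp-3, npp-25 and npp-27. The gene npp-18, encoding the Seh1 protein of the Y complex, had a pooled signal of 66.8 and rank 894, and the site ranked 658 in replicate 1 and 1236 in replicate 2. At ima-2, which encodes an importin alpha needed for early embryonic divisions, the signal was 64.3 and the rank 980 (replicates 1178 and 1207). The inner ring gene npp-3, encoding Nup205, shares a gap of 359 bp with top-2, a topoisomerase II gene, and its signal was 59.6 at rank 1195. Replicate 1 ranked that site 534 and replicate 2 ranked it 8489. The peaks of npp-25 (signal 56.7, rank 1368) and npp-27 (56.2, rank 1397) also lay in the windows of mrps-10 and ntl-4. Of these 5 sites, npp-18 and npp-3 were in the strongest 765 of replicate 1, and another npp-27 summit was in those of replicate 2.

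The central channel, the nuclear basket and the cytoplasmic side, with 3 genes each, had no IDR site. Among all protein-coding genes 4.46% had one, so its absence from so few genes is not read as a trait of these groups. In the central channel, npp-1 (Nup54) ranked 6308, and npp-4 (Nup58) and npp-11 (Nup62) had no pooled-list summit. In the nuclear basket, npp-16 (Nup50) ranked 3583 and npp-7 (Nup153) 28636, and npp-21, the worm TPR gene, had none. On the cytoplasmic side, npp-9 (Nup358), npp-14 (Nup214) and npp-24 (Nup88) ranked 8608, 10105 and 15269. All 7 genes of the inner ring and membrane had a pooled-list summit, with ranks from 120 to 5683 and a median of 1195, and 3 of them an IDR site. The others of that group were npp-3 and npp-25, npp-19 (Nup35) at 1921 and npp-22 (the membrane protein NDC1) at 5683. The 8 Y complex genes, 2 with an IDR site, ranged from 230 to 24883 with a median of 2142. Those without one, besides npp-18, were npp-2 (Nup85) at 1496, npp-15 (Nup133) at 2788, npp-10 (Nup98 and Nup96) at 3392, npp-23 (Nup43) at 16550 and npp-5 (Nup107) at 24883. Each group holds few genes, and no difference between groups was tested.

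Among transport genes without an IDR site, imb-1 (importin beta) ranked 1760 and xpo-1 (the leucine-rich signal exportin CRM1) 1776. Close to them in the pooled list were xpo-2 (the importin alpha exporter CAS) at 1848 and xpo-3 (the tRNA exportin) at 2100. The replicates spread these genes further apart. Replicate 1 ranked imb-1 504, inside its strongest 765, and replicate 2 ranked it 3442. Ranks in replicates 1 and 2 were 1511 and 6446 for xpo-1, 5690 and 970 for xpo-2, and 1089 and 8835 for xpo-3. The transportin gene imb-2 had no pooled-list summit and ranked 19662 in replicate 2. The importin alpha genes ima-3 and ima-1 ranked 3295 and 13959. In the Ran cycle, ran-1 (Ran itself) ranked 1645, ran-4 (the Ran importer NTF2) 5540, ran-2 (RanGAP) 7998 and ran-3 (the exchange factor RCC1) 9285. The gene npp-26 had no summit in the pooled list or in either replicate, and the same held for npp-4 and npp-21.

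**Figure D2:**
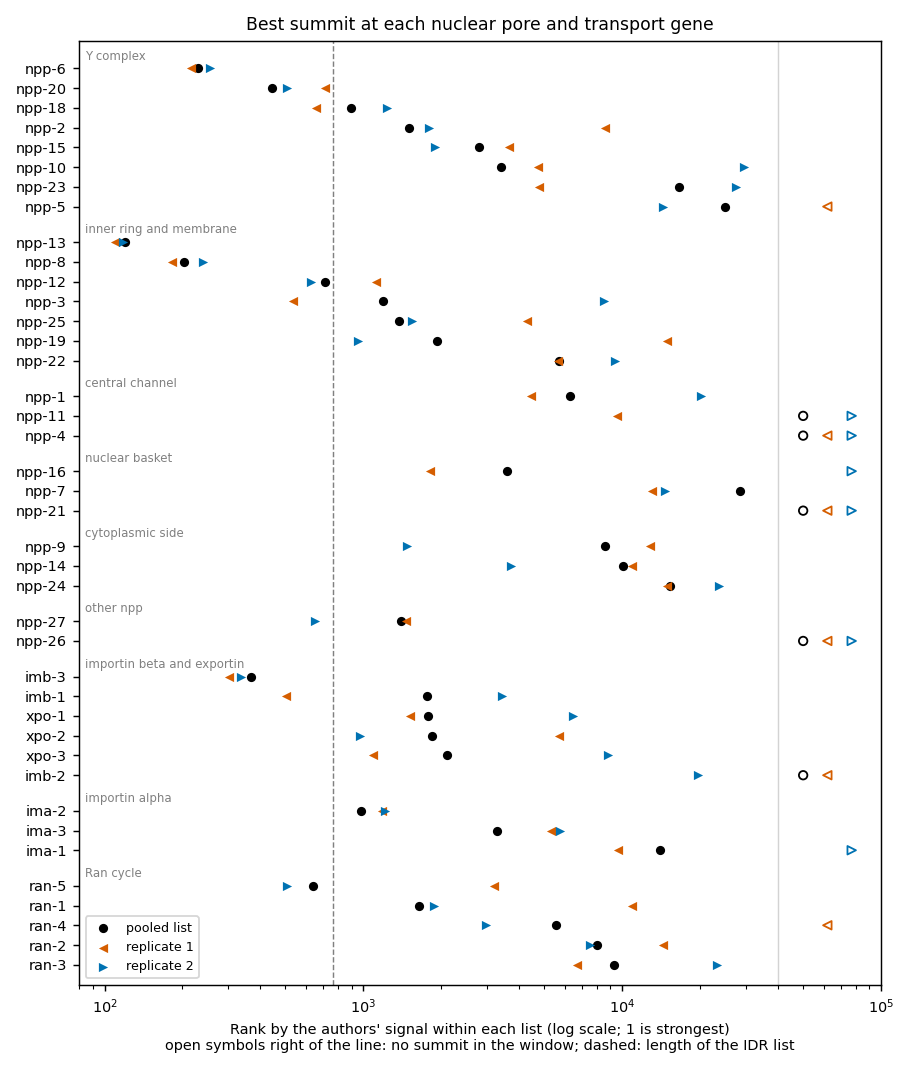
Rank of the best summit in the promoter window of each of the 40 genes, by role, in the pooled list (black), replicate 1 (orange) and replicate 2 (blue), on a log axis. Open symbols mark lists with no summit in the window, and the dashed line the length of the IDR list, 765. npp-13, npp-8, npp-6, imb-3 and npp-20 lie left of it in all 3 lists.

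Both replicates put npp-13, npp-8, npp-6 and imb-3 in the same order and differed lower down. Among the strongest 765 peaks of each replicate, 5 of the 7 member sites had a summit within 100 bp in both (71.4%), beside 501 of all 765 IDR peaks (65.5%). The exceptions were ran-5 and npp-12. In the full replicate lists all 7 were matched in both. Taking the strongest 765 of a single replicate in place of the IDR list, 8 members had a site in replicate 1 and 8 in replicate 2. The share of all protein-coding genes was 4.42% in replicate 1 and 4.35% in replicate 2. Replicate 1 had imb-1, npp-18 and npp-3 in place of ran-5 and npp-12, and replicate 2 had npp-27 besides the 7. Of the 31 members with a summit in both full lists, the best summits lay within 100 bp of each other in 16 and further apart in 15. This was not counted over other genes, so it is not a trait of the members. The IDR list was itself made from both replicates, so these matches are not independent of it.

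**Figure D3:**
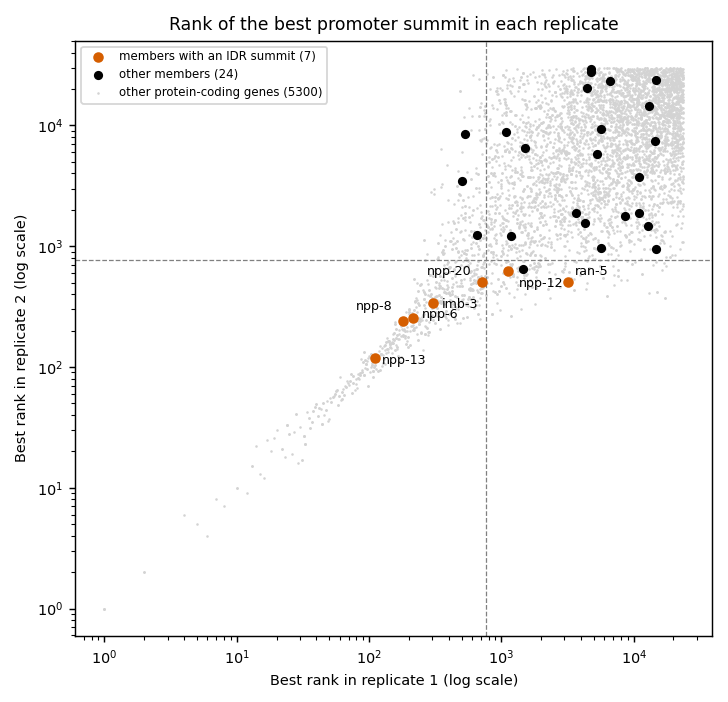
Best rank in replicate 1 (x axis) and replicate 2 (y axis) of genes with a promoter summit in both lists, on log axes, with the 7 members that have an IDR summit in orange, 24 other members in black and 5300 other protein-coding genes in grey. Dashed lines mark rank 765. npp-13, npp-8, npp-6, imb-3 and npp-20 lie within both lines and ran-5 and npp-12 outside that of replicate 1.

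Member summits lay mostly upstream of the start, as did those of all genes, in a window that reaches further upstream than downstream. All 7 IDR summits were upstream, at a median of -244 bp, beside 859 of the 891 genes with an IDR summit, at a median of -225 bp. For the best pooled-list summits, 32 of 35 members and 7140 of 8278 genes were upstream. The members had a median of -248 bp and quartiles of -375.5 and -165, beside a median of -316 bp (-618 and -105) for all genes with one. The bin from -300 to -200 bp held 10 of the 35 (28.6%), and 11.6% of all genes. Of the 35 best summits, 23 lay between annotated genes and 10 inside a protein-coding gene, 3 of these in a coding exon, at npp-16, npp-25 and npp-9. The best summits of ran-1 and xpo-3 lay in noncoding RNA genes. These placements were not counted over all genes, so they are not read as particular to the members. Annotated starts may lie downstream of true ones, since trans-splicing replaces the 5′ ends of many transcripts in this species.

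**Figure D4:**
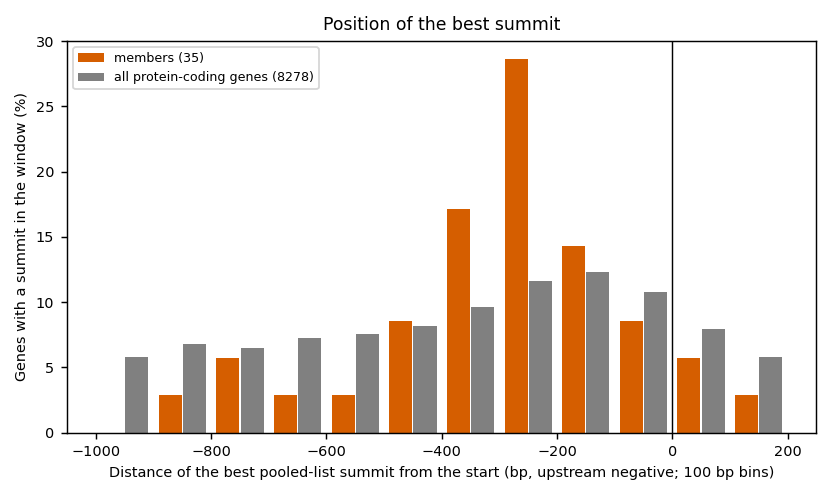
Position of the best pooled-list summit relative to the nearest start in its window, in bins of 100 bp (x axis, upstream negative), as a percentage of the 35 members with one (orange) and of the 8278 protein-coding genes with one (grey). The tallest member bar, 28.6%, is from -300 to -200 bp.

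Neighbours limited how far a site could be given to 1 gene. A divergent upstream neighbour was found at 29 of the 40 members (72.5%) and at 45.4% of all protein-coding genes. Of the 29, 6 had an IDR site, beside 7.01% of all genes with such a neighbour. Of the 11 with a tandem neighbour upstream, 1 had a site (imb-3), beside 2.34%. The IDR peak was also in another gene's window at 3 of the 7 members (42.9%) and at 65.4% of all genes with one. For the best pooled-list summits the order was the other way, with 21 of 35 members (60.0%) and 29.8% of all genes. Given to the nearest start in the window alone, the sites of ran-5 and npp-12 went to R12C12.6 and T23H2.3, which left 5 members. These include npp-6, 405 bp from its summit, although the 5′ end of spd-5 was nearer, at 230 bp. That end did not count, because the summit lay beyond the limit of 200 bp after a start. Members also had more annotated starts, 1.6 against 1.49 a gene, which widens the sequence searched. Outside the windows, 5 of the 33 members without a site had an IDR summit within 5000 bp of the gene, the nearest 2876 bp beyond npp-24, at sahd-1. At xpo-2, 3302 bp away, that summit was the imb-3 peak already counted. The same count over all genes was not made, so nothing is read from it.

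Member sites fell on 3 chromosomes. Chromosome I held 13 of the 40 genes and 4 of the 7 sites, and 6.39% of all protein-coding genes there had an IDR site. Chromosome II held 8 members and 1 site, beside 5.04% of all genes, and IV held 8 members and 2 sites, beside 4.72%. The 8 members on chromosome III and the 3 on V had none, beside 7.99% of all genes on III and 2.7% on V. With so few members on each chromosome, nothing is read from these counts.

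GC content at the 7 member sites ran from 39.6% to 57.4% within 50 bp of the summit, with a median of 49.5%, beside medians of 44.6% for the 765 IDR peaks and 33.7% for windows of the same length centred 174 bp upstream of the outermost start of every protein-coding gene. The sites of npp-12 (39.6%) and ran-5 (42.6%) were below the IDR median. At least 1 of the 5 6-mers, on either strand, was present at 2 of the 7 (npp-13 and npp-20), at 40.1% of the IDR peaks and at 7.27% of those start windows. Within 100 bp of the summit the count was 3 of 7, beside 49.0% of IDR peaks. GGCCAC and CGGCCA share 5 bases, as do CTAGGC and GGCCTA read on the other strand, so the counts of single 6-mers overlap. GGCCAC was at 1 member peak, 19.1% of IDR peaks and 1.70% of start windows, and ACGCGC at 1, 14% and 2.49%. TAAT, the core of many homeodomain sites, was at none of the 7, at 50.5% of IDR peaks and at 67.9% of start windows. The absence of a match says only that these letters are not in this window.

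A list of 18 other genes of the nuclear envelope and of RNA export was written from general knowledge, with earlier results of these data known. Of these, 3 had an IDR site (16.7%, exact interval 3.58 to 41.4%). Among all protein-coding genes the share was 4.46%. Without replicate 2, in the strongest 765 peaks of replicate 1, the count was 5 (27.8%), with emr-1 and smo-1 added, beside 4.42% of all genes. The 3 genes were baf-1, whose product binds DNA, lem-2, encoding an inner membrane protein with a LEM domain, and lem-4, whose product controls BAF-1 phosphorylation. The lem-2 peak had a signal of 193 at rank 201 (replicates 204 and 200), 189 bp upstream of lem-2. The baf-1 peak had a signal of 121 at rank 324 (replicates 267 and 401), 134 bp upstream of baf-1, and it was also 827 bp upstream of tag-342. It held GGCCAC and CGGCCA, which overlap, as well as ACGCGC. The lem-4 peak had a signal of 78.9 at rank 614, 113 bp downstream of a lem-4 start, within a coding exon, and also 552 bp upstream of Y55F3BR.11. Replicate 2 had it at rank 522. The best lem-4 summit of replicate 1 ranked 492, among its strongest 765, and lay just beyond the 100 bp limit for a match. The next genes were chosen after their values were seen. Without an IDR site, smo-1 (SUMO) ranked 1126, nxt-1 and nxf-1, of the mRNA export receptor, 2080 and 7308, emr-1 (emerin) 2624, mel-28 (ELYS, which seeds pore assembly) 8664 and vrk-1 (the kinase of BAF-1) 24408. The lamin gene lmn-1 had no pooled-list summit, and neither had nxf-2, sun-1, unc-84 and zyg-12.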

How the data were processed

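CEH-90 sites were read from peak lists in build ce11, deposited by the authors for each replicate, for both replicates pooled, and after an IDR threshold. Per the description files deposited with the samples, the lists were derived from alignments and 1 control, which was not analysed here. Aligner, peak caller and IDR threshold: not given in the sources used here. Scaling of the authors' signal is likewise not stated, and it served to rank peaks within a list only. The authors' q-value was deposited as -log10. The ce10 lists were not used. No read counts were in the lists, so depth is unknown. The replicates are labelled biological, and their cultures are not described.

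Summits were set against gene models of Ensembl release 115, at most 1000 bp before or 200 bp after a start. Summits of different lists matched within 100 bp. Sequence came from the RefSeq WBcel235 genome, within 50 bp of summits, read on both strands. Intervals are exact binomial (Clopper-Pearson) at 95%. No p-value was computed. Python 3.11.15, pandas 2.3.3, NumPy 2.4.6, SciPy 1.17.1 and matplotlib 3.10.9 were used, and the assignment of summits to starts was tested on simulated data. Alternatives were other windows, gene ends or nearest starts in place of all starts, stronger peaks, single replicates, other match distances and other sequence widths.

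The members, the lists and the 6-mers were chosen with earlier results of these data known, and TAAT and the inverted repeats were added later still. The text names every member with an IDR summit, the 5 with the highest pooled signal among the others, those without a pooled-list summit, genes sharing a named peak, and envelope genes with an IDR summit. Further members are named so that all are accounted for.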

Additional observations from a re-analysis of the deposited data

How the results depend on the processing

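The 7 members with an IDR site became 6 with 500 bp upstream (3.65% of all genes) and 5 with the nearest start in the window alone (2.98%). The 382 strongest peaks of the IDR list alone left 4 (2.52%), npp-13, npp-8, npp-6 and imb-3. The count stayed 7 with 2000 bp upstream, with nothing downstream and with gene 5′ ends. Pooled-list peaks with a q of 0.05 or less, in place of all pooled-list peaks, gave 7 members instead of 35 (4.74% of all genes). Leaving out 1 replicate gave 8 members either way. The median best rank, 1921 in the pooled list, was then between 2430.5 and 4375, the higher without replicate 2 (7459 over all genes). The lists differ in length, so these medians are not on 1 scale. The other envelope genes with a site then numbered 3 without replicate 1 (4.35% of all genes) and 5 without replicate 2 (4.42%). Without replicate 2, npp-20 ranked 712, npp-12 1115 and ran-5 3186. The cause of these changes was not tested. No paired analysis was possible because there was 1 group. With 7 sites and 2 replicates, counts rest on few peaks, and depth could not be weighed.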

Other observations

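Some member sites held inverted repeats, searched after the sequences had been seen. The longest was at npp-20, where CACGAGAAAC and its reverse complement GTTTCTCGTG stood 24 bp apart within the 101 bases. At ran-5, GCGCCAGT and ACTGGCGC stood 7 bp apart. Arms of at least 8 bp were present at 3 of the 7 member sites, the other being npp-13, and at 150 of the 765 IDR peaks (19.6%). The longest arm at a member site had a median of 7 bp, beside 6 bp over the 765. No meaning is given to these repeats.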
